A study of Mus musculus with 2 samples.

Results

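The genes described here encode 8 pancreatic proteases, namely the elastases Cela1, Cela2a and Cela3b, the chymotrypsins Ctrb1, Ctrl and Ctrc, and the carboxypeptidases Cpa1 and Cpb1. They were taken by gene symbol as 8 of the 32285 genes of the single-cell count matrices. No cutoff on their values was used, but earlier results of these data were known when they were chosen. Cela1 is the elastase I gene, and a rodent elastase I promoter drives the tumour-inducing transgene of both groups of mice. Single-cell RNA sequencing was performed on pancreatic tumours of 6-week-old mice, with 1 library per group. EL1 mice (FVB/N-EL1-Luc/EL1-TAg) carry SV40 large T antigen and firefly luciferase, each under the elastase I promoter, which is active in acinar cells. WTg mice carry both of these transgenes and, in addition, a Mettl3 open reading frame from C57BL/6J under the CAG promoter, which is active in most tissues. The Mettl3 transgene was made in BL/6 eggs and crossed into EL1, so the strain background differs together with the transgene, and the effects of strain and transgene cannot be told apart. How many animals went into a library, and of which sex, was not given in the sources used here.

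Pancreatic acinar cells make digestive enzymes as inactive precursors, called zymogens, and store them in granules until secretion. Elastases and chymotrypsins are serine proteases that cut inside proteins, elastases mainly after small residues and chymotrypsins mainly after large hydrophobic ones. Carboxypeptidases A and B then remove single residues from the carboxyl end, A preferring aromatic or aliphatic residues and B basic ones. These genes are among the most active of the normal acinar cell, and their transcription is driven there by the PTF1 complex, which binds a pair of short motifs, an E-box and a TC-box, in enzyme promoters.

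A library stands for a group here without a replicate, so no difference was tested and no value has a spread between animals. Levels are sums of unique molecular identifiers (UMIs, each standing for 1 captured RNA molecule) per 1000000 UMIs of the same cells (CPM). The 95% intervals in brackets are exact and cover counting error only. A barcode was kept as a cell from 500 genes and 1000 UMIs upward if mitochondrial UMIs made up no more than 20%, which left 1113 of 1621 barcodes with 37961287 UMIs in EL1 and 905 of 1488 with 33007683 UMIs in WTg. The median depth was 26543 UMIs per cell in EL1 and 34836 in WTg. The libraries shared 15 barcodes in all and 0 among the kept ones. The labelled cell type is epithelial cell, and at least 1 of 6 epithelial genes was found in 98.6% of EL1 and 97.7% of WTg cells. This cannot decide the label, since 1 UMI is enough and free RNA can give it. Krt8 alone, 1 of the 6, stood at 6198 CPM in EL1 and 5878 CPM in WTg. Mettl3, the gene of the transgene, had 15.2 CPM in EL1 against 66.7 CPM in WTg, and whether the reads of the transgene itself were counted was not given in the sources used here.

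In the GRCm38 annotation (GENCODE M21), Cela1 (ENSMUSG00000023031) lies on the minus strand of chromosome 15 from 100674421 to 100687921. Cela3b (ENSMUSG00000023433) lies on chromosome 4 from 137420999 to 137430540, and the chymotrypsin gene Ctrl (ENSMUSG00000031896) on chromosome 8 from 105932003 to 105933862, both on the minus strand. Ctrb1 (ENSMUSG00000031957) is also on the minus strand of chromosome 8, from 111686519 to 111691010. Cpa1 (ENSMUSG00000054446) is on the plus strand of chromosome 6 from 30639218 to 30645363, and Cpb1 (ENSMUSG00000011463) on the minus strand of chromosome 3 from 20248264 to 20275733. Cela2a (ENSMUSG00000058579, chromosome 4, 141814962 to 141826160) lies wholly inside the annotated span of Ctrc (ENSMUSG00000062478, chromosome 4, 141814962 to 141846359) on the same strand, with the same annotated end. Reads could therefore be split or lost between this pair, and the counts of Ctrc in particular are uncertain. Cela3b has a near-identical relative, Cela3a, with which it could share reads.

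The promoters of 7 of the genes were matched by symbol in RefSeq (GRCm38.p6). Those of Cela1, which names the transgene promoter, of Cela3b and Ctrl, which were far apart between the libraries, and of Ctrb1, the most abundant gene, are shown as the 250 bases before the annotated start, 5′ to 3′ on the gene's own strand, which is the minus strand for all 4. Their positions are chr15:100687921-100688170 for Cela1, chr4:137430521-137430770 for Cela3b, chr8:105933863-105934112 for Ctrl and chr8:111691011-111691260 for Ctrb1. Capitals mark each match to a searched motif, on either strand.
Cela1: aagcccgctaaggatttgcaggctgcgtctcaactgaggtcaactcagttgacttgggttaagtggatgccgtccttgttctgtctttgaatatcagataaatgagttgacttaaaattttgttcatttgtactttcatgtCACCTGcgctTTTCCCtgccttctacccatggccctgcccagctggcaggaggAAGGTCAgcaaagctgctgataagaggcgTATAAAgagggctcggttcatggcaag
Cela3b: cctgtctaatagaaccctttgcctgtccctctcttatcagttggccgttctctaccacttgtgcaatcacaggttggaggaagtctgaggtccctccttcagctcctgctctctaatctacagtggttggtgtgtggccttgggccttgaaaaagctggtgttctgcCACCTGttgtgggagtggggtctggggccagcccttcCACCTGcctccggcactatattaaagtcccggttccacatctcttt
Ctrl: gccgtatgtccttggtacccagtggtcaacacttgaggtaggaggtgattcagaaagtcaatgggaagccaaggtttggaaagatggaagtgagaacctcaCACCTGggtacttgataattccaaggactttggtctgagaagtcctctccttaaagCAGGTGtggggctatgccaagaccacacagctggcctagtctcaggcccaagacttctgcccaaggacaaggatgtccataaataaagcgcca
Ctrb1: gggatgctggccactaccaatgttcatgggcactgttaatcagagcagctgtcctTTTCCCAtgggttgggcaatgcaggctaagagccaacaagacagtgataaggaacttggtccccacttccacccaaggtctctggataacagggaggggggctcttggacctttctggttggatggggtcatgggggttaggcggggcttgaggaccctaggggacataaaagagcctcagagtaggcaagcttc

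The motifs searched, on both strands of the 300-base windows from 250 bases before to 50 bases after the start, were an E-box, a TC-box, a nuclear receptor motif and a TATA box. The letters searched for the E-box, which the PTF1 complex can bind, were CACCTG in either direction. For the TC-box, the other part of the PTF1 site, the letters searched were TTTCCCA in either direction. The nuclear receptor motif, which factors such as NR5A2 can bind, had the letters AAGGTCA in this search. For the TATA box, where transcription initiation factors assemble, the letters were TATAAA. A shorter TC-box, TTTCCC, was added after the sequences had been seen, and it overlaps every match of the full one. Positions are counted from the annotated start and give the leftmost base of a match. The Cela1 promoter held the E-box at -109, the shorter TC-box at -99, the nuclear receptor motif at -56 and the TATA box at -27. Cela3b held the E-box at -83 and again at -46. Ctrl held it at -149, and its reverse complement CAGGTG at -93. Ctrb1 held the full TC-box at -195 and no E-box of these letters in this window. Among the 7 promoters, the E-box was found in 5, compared with 20.2% of all 32851 windows, and the full TC-box in 3, compared with 8.06%. The nuclear receptor motif was found in 1 of the 7 (4.72% of all windows), the TATA letters in 2 (13.6%), of which the match of Cpb1 lies after the start, at position 35, and the shorter TC-box in 4 (25.3%). The E-box and the shorter TC-box were found together in the promoters of Cela1 and Cela2a only, and in 4.86% of all windows. A match is a description of the letters and not evidence of binding.

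The 8 genes took a large share of all RNA molecules counted, 8.06% of the UMIs of EL1 and 10.0% of those of WTg. Ctrb1, Cela2a, Cpa1, Cpb1 and Cela1 stood between 9562 and 28838 CPM in both libraries and differed little between them. Cela3b, Ctrl and Ctrc were far less abundant and were all higher in WTg, Cela3b by 10.9-fold, Ctrl by 15.3-fold and Ctrc by 9.09-fold. Each UMI is counted once per molecule at the 3′ end, so levels can be set side by side between genes without division by length.

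**Figure D1:**
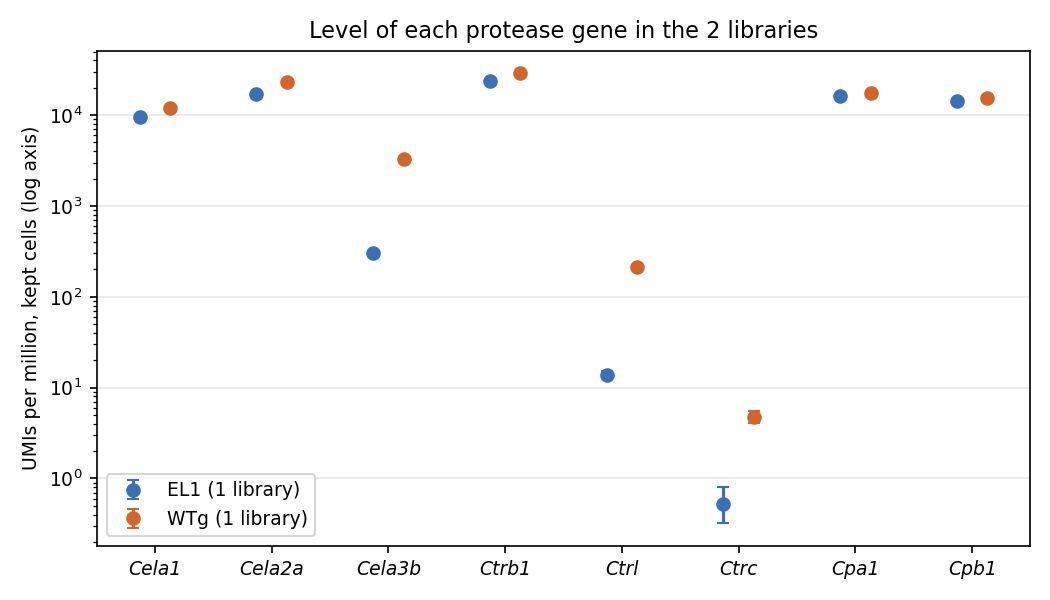
Level of each of the 8 protease genes in CPM on a log axis, with 1 point per library (blue for EL1, orange for WTg) and exact 95% Poisson intervals that are mostly smaller than the points. The points of Cela3b, Ctrl and Ctrc are far apart between the libraries, and those of the other genes lie close together.

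Among the elastases, Cela2a, which cleaves after medium-sized hydrophobic residues, was the most abundant, with an EL1 level of 16896 CPM (16854 to 16937) and a WTg level of 23097 CPM (23045 to 23149). Cela1 had 9562 CPM (9531 to 9593) in the EL1 library and 11865 CPM (11827 to 11902) in the WTg library. For Cela3b the EL1 level was 300.2 CPM (294.7 to 305.7) and the WTg level 3280 CPM (3260 to 3299). All 3 were higher in WTg, with log2 ratios of WTg over EL1 of 0.45 for Cela2a, 0.31 for Cela1 and 3.45 (3.42 to 3.48) for Cela3b. Summed, the elastases made up 26758 CPM of EL1 and 38241 CPM of WTg, which is 0.52 on the log2 scale (0.51 to 0.52).

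Among the chymotrypsins, Ctrb1, the main chymotrypsinogen gene, was the most abundant of all 8 genes, with 23506 CPM (23458 to 23555) in the EL1 library and 28838 CPM (28780 to 28896) in the WTg library, which is 0.29 on the log2 scale. The chymotrypsin-like gene Ctrl was counted 529 times in EL1 (13.9 CPM, 12.8 to 15.2) and 7020 times in WTg (212.7 CPM, 207.7 to 217.7). Ctrc, which in the normal pancreas cleaves trypsinogen and limits its activation, had 20 UMIs in EL1 and 158 in WTg, or 0.527 CPM (0.322 to 0.814) and 4.79 CPM (4.07 to 5.59). The log2 ratio was 3.93 (3.80 to 4.06) for Ctrl and 3.18 (2.51 to 3.93) for Ctrc. Ctrc was thus the least abundant of the 8 by far in both libraries. Since Ctrb1 outweighed the other 2, the summed ratio of the class was 0.30 on the log2 scale.

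The carboxypeptidases were the closest between the libraries. For Cpa1 the level was 16088 CPM (16048 to 16129) in EL1 against 17345 CPM (17300 to 17390) in WTg, and for Cpb1 it was 14207 against 15311 CPM. Both log2 ratios were 0.11, with intervals of 0.10 to 0.11.

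The order of levels was Ctrb1, Cela2a, Cpa1, Cpb1, Cela1, Cela3b, Ctrl and Ctrc in both libraries, and no neighbours in this order had overlapping counting intervals. Of the 8 genes, 3 were at least 2-fold higher in WTg and 0 at least 2-fold lower. For comparison, of the 16167 genes whose UMIs summed to 10 or more, 10.1% were at least 2-fold higher in WTg and 6.9% at least 2-fold lower. Over all these genes the median log2 ratio was -0.14, and over the 8 proteases it was 0.38. Of the 848 genes with at least 10000 UMIs, a level reached by 6 of the 8 proteases, 31 were at least 2-fold higher and 11 at least 2-fold lower.

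The share of its UMIs that a cell spent on the 8 genes varied widely within each library. In EL1 the median cell gave 6.06% of its UMIs to them, with a 10th to 90th percentile range of 0.945% to 13.8%, and the highest cell gave 29.9%. In WTg the median was 8.70%, the range 0.650% to 17.0% and the highest cell 31.9%. Cells with at least 10% were 28.5% (25.8 to 31.3) of the EL1 cells that were not immune-like and 46.3% (42.9 to 49.7) of those of WTg. Immune-like cells, which should make none of these enzymes, had medians of 0.102% in EL1 (n = 50 cells) and 0.0996% in WTg (n = 67 cells) at lower median depths of 6882 and 8161 UMIs.

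**Figure D2:**
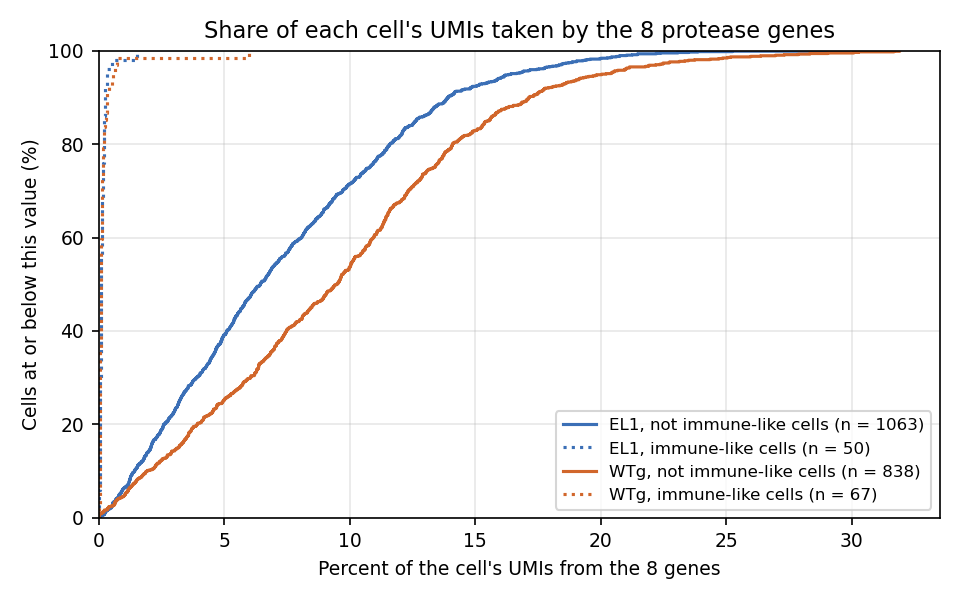
Cumulative share of cells (y axis, %) at or below a given percent of the cell's UMIs from the 8 genes (x axis), for EL1 (blue) and WTg (orange), with immune-like cells as dotted lines. The WTg curve lies to the right of EL1, with medians of 9.49% and 6.45% in cells that are not immune-like, and the immune-like curves lie near 0.

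Cela3b, Ctrl and Ctrc were also found in fewer cells. After thinning each cell to 2000 UMIs, which left out 62 shallower cells of EL1 and 69 of WTg, a Cela3b UMI was found in 19.8% (17.4 to 22.3) of 1051 EL1 cells and in 68.4% (65.2 to 71.6) of 836 WTg cells. Ctrl was found in 0.856% (0.392 to 1.62) and 6.94% (5.31 to 8.88) of the cells, and Ctrc in 0.0952% and 0.957%. The other genes were found in 87.3% to 95.9% of the cells in both libraries. Without thinning, Cela3b was found in 57.2% of EL1 and 85.1% of WTg cells and Ctrl in 2.70% and 16.8%.

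Free RNA in the droplets gives some UMIs in cells that do not express a gene, so the thinned immune-like cells (47 in EL1 and 60 in WTg, median depths 7411 and 9168 UMIs before thinning) were taken as the background. They held a Ctrb1 UMI in 48.9% of EL1 and 41.7% of WTg cells, and a Cela1 UMI in 23.4% and 43.3%. Cela3b was found in 0 of 47 EL1 cells (a count that still allows 6.38%) and in 8.33% (2.76 to 18.4) of the WTg cells. Ctrl was found in 0 of 47 EL1 cells and in 1.67% (0.0422 to 8.94) of the WTg cells. The share of cells with Cela3b was therefore above this background in both libraries. For Ctrl and Ctrc the shares of cells were within the background's interval or limit in both libraries, so that scattered single UMIs of these genes could not be told from background.

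Ctrl was concentrated in very few cells. In EL1, 10 cells held 95.8% of its UMIs and the highest single cell 242 of the 529. In WTg, 10 cells held 56.9%, and the highest cell had 663 UMIs. Without the 10 highest Ctrl cells of each library (an alternative added once these values were known), the log2 ratio of Ctrl went from 3.93 to 7.30, so the EL1 level of this gene rests on those cells. For Cela3b, 10 cells held 33.2% of the UMIs in EL1 and 17.6% in WTg, and the ratio without them was 3.77. For the 5 abundant genes, the 10 highest cells held 6.24% to 10.6%.

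Cells with much Ctrl differed in the other enzymes too, and in a different way in each library. The 52 WTg cells with at least 10 Ctrl UMIs had 11542 CPM of Cela3b, 50019 CPM of Ctrb1 and 23190 CPM of Cpa1, and the 753 WTg cells without a Ctrl UMI had 2124, 26396 and 16527 CPM. In EL1, the 7 cells with at least 10 Ctrl UMIs had 37782 CPM of Ctrb1 against 22872 CPM in the 1083 cells without, but only 3994 CPM of Cpa1 against 16226 CPM. Cpb1 in these 7 cells was at 3569 CPM, against 14367 CPM in the cells without Ctrl. These groups of cells were set by the Ctrl count itself and come from 1 library each.

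To describe the genes by cell group, cells of both libraries were clustered without the 8 genes and without the companion enzymes listed further on, so that none of them shaped a cluster. Of the 17 clusters, 11 were made up to at least 90% of 1 library, and these held 77.5% of all 2018 cells. Levels in most clusters can therefore be given for 1 library only, and cell type and library cannot be told apart there. Clusters were called acinar-like, neuroendocrine-like, macrophage-like and so on from fixed marker lists that held none of the 8 genes, and 9 stayed unnamed. Cluster 3 (78 EL1 and 92 WTg cells, median 2000 UMIs) had 4 haemoglobin genes at its top and so met the rule for red blood cells. Its 8 enzymes were far above its 5 red blood markers, at 46816 CPM against 9625 CPM for EL1 and at 63800 CPM against 1852 CPM for WTg, so it is called by its number. The neuroendocrine-like cells kept their name, although their 8 enzymes were also above their 10 markers, at 38004.5 CPM against 11630 CPM for EL1 and 54559 CPM against 7366 CPM for WTg. The 9 acinar markers other than zymogens (such as Ptf1a, Sycn and Gp2) were all detected in both libraries, with sums of 1394 CPM for EL1 and 4106 CPM for WTg. They did not move together, with log2 ratios of WTg over EL1 from -0.75 for Ptf1a to 7.07 for Serpini2. Sycn (6.20), Gp2 (2.45), Cuzd1 (2.19) and Bhlha15 (1.06) were also past 2-fold. Zg16 (0.62), Rbpjl (0.06) and Erp27 (-0.002) were not. Cluster 0 was named from 6 and cluster 2 from 3 of the 9 acinar markers, each set against all other cells of both libraries. A cluster without the acinar-like name is therefore not shown to lack acinar cells. The 10 neuroendocrine markers summed to 3890 CPM for EL1 and 2562 CPM for WTg.

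**Figure D3:**
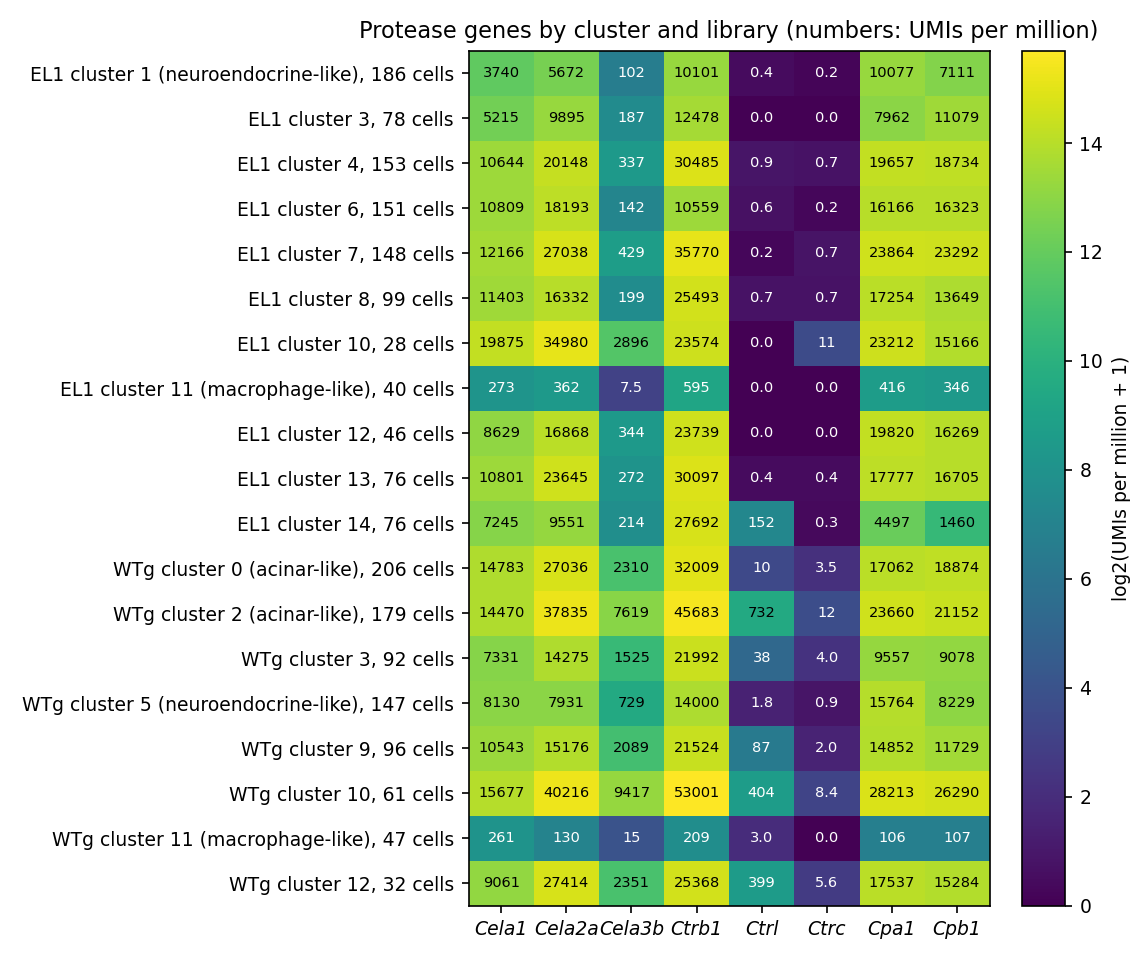
Level of the 8 genes (columns) in each cluster with at least 20 cells of a library (rows). Colour gives log2(CPM + 1) and the printed number the CPM. The macrophage-like rows are the lowest, Ctrl is high in WTg clusters 2, 10 and 12 and in EL1 cluster 14, and Cela3b is higher in WTg rows other than the macrophage-like one than in the EL1 rows other than cluster 10.

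In WTg, the summed level of the 8 genes was highest in cluster 10, an unnamed group of shallow cells (61 cells, median 3379 UMIs), at 173227 CPM. The acinar-like cluster 2 (179 cells) followed at 151163 CPM and the acinar-like cluster 0 (206 cells) at 112087 CPM. The neuroendocrine-like cluster 5 (147 cells) was at 54786 CPM and the macrophage-like cluster 11 at 832.5 CPM. In EL1, cluster 7 (148 cells, led by S100g) was highest at 122559 CPM, followed by cluster 10 (28 cells) at 119714 CPM. The neuroendocrine-like cluster 1 (186 cells) was at 36804 CPM and the macrophage-like cells at 1999 CPM. The neuroendocrine-like cells of both libraries thus had more of these enzymes than macrophage-like cells, by 18.4-fold in EL1 and 65.8-fold in WTg, and less than the acinar-like clusters of WTg.

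Cela1, whose promoter type drives the T antigen, was found at 3740 CPM or above in each cluster with at least 20 cells of a library, other than the macrophage-like one. In EL1 it stood at 12166 CPM in cluster 7, at 11403 CPM in cluster 8 (99 cells, led by histone genes) and at 3740 CPM in the neuroendocrine-like cluster 1. In WTg it stood at 14783 and 14470 CPM in the acinar-like clusters 0 and 2, at 10543 CPM in cluster 9 (96 cells, led by histone genes, Ube2c and Top2a) and at 8130 CPM in the neuroendocrine-like cluster 5. The macrophage-like cells of EL1 had 273 CPM (230.4 to 321.2) and those of WTg 261 CPM (230.1 to 294.8), which overlapped. In these clusters Cela1 made up 9.05% to 16.6% of the summed level of the 8 genes, leaving out the macrophage-like cells of WTg, where it made up 31.4% of only 823 UMIs.

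Cela3b differed more between the WTg clusters than Cela1 did. It stood at 9417 CPM in cluster 10, 7619 CPM in cluster 2 and 2310 CPM in cluster 0, although Cela1 was alike in the latter pair of acinar-like clusters. In the neuroendocrine-like cluster 5 it was at 729.2 CPM. In EL1 it was at 101.5 to 428.6 CPM in all clusters with at least 20 cells except cluster 10, at 2896 CPM, and the macrophage-like cluster 11, at 7.53 CPM. The 4 EL1 cells that fell into the acinar-like cluster 2 held 12.5% of the Cela3b UMIs of that library.

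Ctrl had an even narrower pattern. In WTg, cluster 2 held 82.9% of its UMIs, at 732.5 CPM (713.8 to 751.6), and cluster 0, the other acinar-like cluster, was at 10.1 CPM (8.21 to 12.2). Clusters 10 and 12 were at 404.2 and 398.7 CPM, which overlapped in their intervals, and cluster 9 at 86.7 CPM. In EL1, 96.4% of the Ctrl UMIs were in cluster 14 (76 cells, led by the gastric proton pump gene Atp4b and by Klk1), at 151.9 CPM (139.0 to 165.7), carried by 15.8% of its cells. The other EL1 clusters with at least 20 cells were below 1 CPM or at 0. Ctrc followed cluster 2 as well, with 96 of its 158 WTg UMIs there.

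Cluster 14 of EL1 also had an unusual mixture of the abundant enzymes. Ctrb1 was at 27692 CPM and made up 54.5% of the summed 8 genes, compared with 14.6% to 30.5% in the other EL1 clusters with at least 20 cells. Cpb1 was at 1460 CPM and Cpa1 at 4497 CPM, so that the carboxypeptidases made up 2.87% and 8.85% of the sum, compared with at least 12.7% and 17.0% in the other EL1 clusters of that size. Among smaller groups, the 16 EL1 cells in cluster 5 had a still smaller share of Cpb1, with 155 UMIs against 7472 of Cpa1. Cluster 6 of EL1 (151 cells, led by Smarca1 and Fst) had the opposite shift, with Ctrb1 at 10559 CPM or 14.6% of the sum, Cela2a at 25.2% and Cpb1 at 22.6%. Among clusters with at least 20 cells, Cpa1 had its largest share in the neuroendocrine-like ones, 27.4% in EL1 cluster 1 and 28.8% in WTg cluster 5, and Cela2a had its smallest share of WTg, 14.5%, in cluster 5.

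The comparison of WTg with EL1 was then made inside cell groups with at least 20 cells of each library. Cela3b had a ratio above 0 in each of these groups. In cluster 12 (46 and 32 cells, led by Fos and Egr4) it had 343.8 CPM in EL1 against 2351 CPM in WTg, which is 2.77 on the log2 scale (2.62 to 2.93). In the neuroendocrine-like cells (202 and 155 cells, mostly cluster 1 in EL1 and cluster 5 in WTg) it was at 154.4 and 711.9 CPM, a ratio of 2.20 (2.10 to 2.31). Cluster and library cannot be told apart in that ratio. In cluster 5 alone, the 16 EL1 cells held 377 Cela3b UMIs and the 147 WTg cells 4110. These are sums over very unequal numbers of cells, so they are not levels and do not show a higher level in WTg. A ratio inside cluster 5 was not computed, since EL1 had fewer than 20 cells there. In cluster 10 the ratio was 1.70 (1.57 to 1.84) and in cluster 3 it was 3.03 (2.53 to 3.57). In macrophage-like cells, at 4 and 15 UMIs, the ratio was 1.01 and its interval (-0.64 to 3.06) included 0. The sum of the 9 acinar markers other than zymogens was also higher in WTg in 3 of these groups. It was 1277 and 4300 CPM in cluster 12, 2147 and 3497 CPM in the neuroendocrine-like cells and 2801 and 5218 CPM in cluster 10. The sum of the 10 neuroendocrine markers was lower in WTg, at 3401 and 1623 CPM, 11630 and 7366 CPM, and 4029 and 2417 CPM in the same order. Single markers were not compared inside these groups. The part of either list in the result was not tested.

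Ctrl was at 0 in EL1 cluster 12 and had 429 UMIs in WTg cluster 12, and it was at 0 in EL1 cluster 10 and had 144 UMIs in WTg cluster 10. With the 0 replaced by 3 counts over the EL1 cells of the cluster, Ctrl was 159.7-fold higher in WTg in cluster 12 and 24.2-fold higher in cluster 10. These folds depend on the 3 counts and have no interval. These UMIs came from 12.5% of the 32 WTg cells of cluster 12 and 18.0% of the 61 of cluster 10. In the neuroendocrine-like cells Ctrl was near 0 in both, at 4 and 11 UMIs, with a log2 ratio of 1.52 (-0.24 to 3.62).

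The 5 abundant genes did not keep 1 direction across groups. Cela1 had a log2 ratio of 0.75 in the neuroendocrine-like cells, 0.07 in cluster 12 and -0.34 in cluster 10. Ctrb1 had a ratio of 0.45, 0.10 and 1.17 in the same groups, and Cpb1 a ratio of 0.33, -0.09 and 0.79. The neuroendocrine-like ratios again set mostly cluster 1 of EL1 against cluster 5 of WTg. In cluster 5 alone, the 16 EL1 cells held 8449 UMIs of Cela1, 5712 of Ctrb1 and 155 of Cpb1. The 147 WTg cells of that cluster held 45828, 78913 and 46384. These sums are not scaled for the unequal numbers of cells. Cela1 had the largest of them in EL1 and the smallest in WTg, so the neuroendocrine-like ratios do not describe cluster 5. The macrophage-like cells (40 in EL1 and 47 in WTg) make up most of the immune-like cells that were taken as the background above. In them Cela2a, Ctrb1, Cpa1 and Cpb1 were lower in WTg, with ratios from -1.97 to -1.47, while Cela1 was at -0.06 (-0.36 to 0.24).

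**Figure D4:**
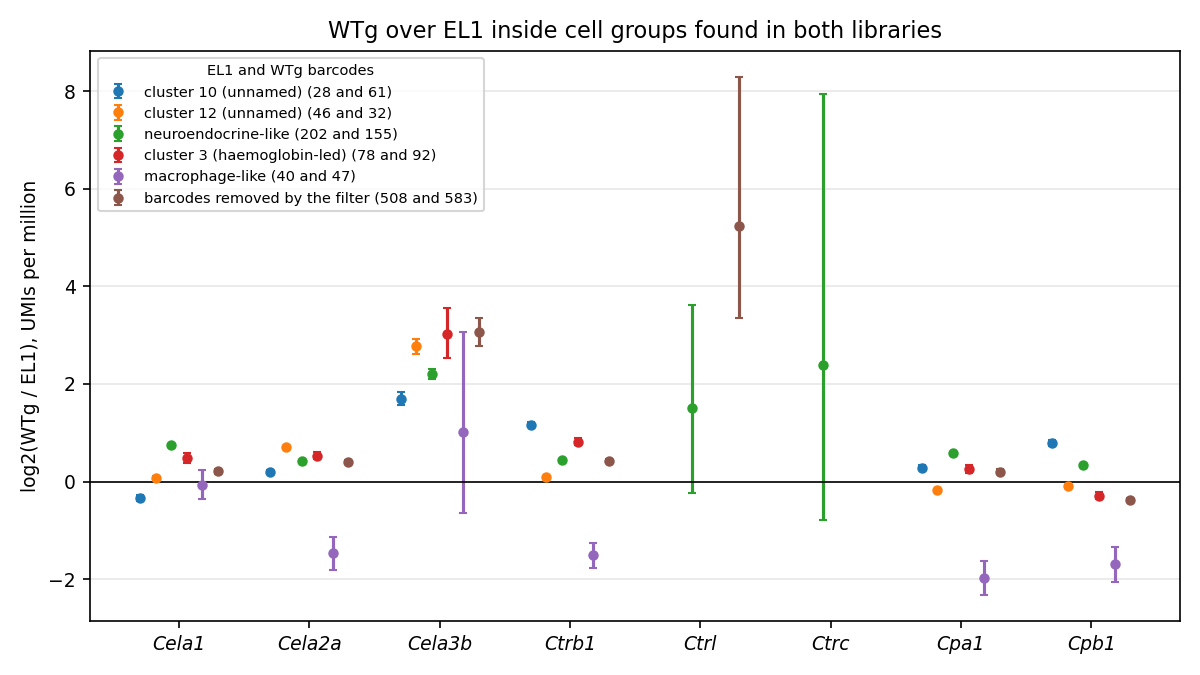
Log2 ratio of WTg over EL1 (y axis) of each gene inside 6 groups of barcodes found in both libraries, the barcodes removed by the filter among them (colours, with the number of EL1 and WTg barcodes), with exact 95% intervals. The neuroendocrine-like group is mostly cluster 1 in EL1 and cluster 5 in WTg, so its points do not compare the libraries inside a shared cluster. Points are left out where a library had 0 UMIs or both had at most 3. Cela3b lies above 0 in each group, with an interval that includes 0 in macrophage-like cells only, and the abundant genes lie on both sides of 0.

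The acinar-like clusters 0 and 2 held 5 cells of EL1 and 385 of WTg, and with cluster 10 they had the highest summed levels of WTg. This does not mean that EL1 lacked cells rich in these enzymes, as the unnamed EL1 cluster 7 had 122559 CPM of the 8 genes. Without the 3 clusters 0, 2 and 10, a choice that kept 1080 EL1 and 459 WTg cells and was tried only after the data had been seen, Cela1 had 9501 CPM in EL1 against 8368 CPM in WTg, and its ratio turned from 0.31 to -0.18. The ratio turned to -0.48 for Cela2a, -0.46 for Ctrb1, -0.21 for Cpa1 and -0.58 for Cpb1. Cela3b, Ctrl and Ctrc were still at least 2-fold higher in WTg, with ratios of 2.53 (2.49 to 2.56), 2.21 (2.05 to 2.36) and 1.85 (0.90 to 2.84). Since this takes away the highest clusters of WTg while cluster 7, the highest of EL1 among clusters with at least 20 cells, stays in, lower ratios follow from the choice of clusters, and the values are given as a description. The part of the different mixtures of cells in the ratios was not tested.

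Within a library, the abundant genes went up and down together from cell to cell. Over the cells thinned to 2000 UMIs, Pearson's r of log2(count + 1) between Cpa1 and Cpb1 was 0.76 in EL1 (1051 cells) and 0.75 in WTg (836 cells). Cela2a and Cpb1 had an r of 0.735 in EL1 and 0.84 in WTg, and Cela2a and Ctrb1 0.64 and 0.80. Cela3b followed Cela1 more loosely, with 0.19 and 0.46. Ctrl had r values of 0.07 to 0.29 with the other genes in WTg, where it is mostly at 0. These are descriptions over cells that share a library.

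Across the 19 pairs of cluster and library with at least 20 cells, the levels of Cela1 and Cela2a had an r of 0.98, those of Cela3b and Ctrc 0.87 and those of Ctrl and Cpa1 0.16, on the log2(CPM + 1) scale. Among the 5 genes outside the 8 with the pattern most like the summed 8 genes were Pcolce (0.98), Reg1 (0.97), Phgdh (0.97) and Spink1 (0.97). Spink1 is the trypsin inhibitor secreted with the zymogens. The genes most like Cela1 were Phgdh (0.97), Reg1 (0.96), Copz2 (0.96), Pcolce (0.96) and Erp27 (0.96). All of these points come from 2 libraries, and the low macrophage-like points weigh on all of them. With at least 50 cells per point, 2 of the first 5 and 0 of the latter 5 remained.

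The companion enzymes of the same granules give the setting of these values. Of 26 listed enzymes, 24 were among the 32285 genes and 23 had at least 10 UMIs. Of these, 12 were at least 2-fold higher in WTg and 2 at least 2-fold lower, with a median log2 ratio of 1.07. The shares over all genes with at least 10 UMIs were 10.1% and 6.9%. The ratio was highest for Prss1, a trypsinogen gene, which went from 36.0 CPM in EL1 to 5249 CPM in WTg (7.19). Cela3a, the near relative of Cela3b, was at 1.16 and 18.3 CPM (3.98), close in ratio to Cela3b itself. The trypsinogen genes Prss3 and Try4 had ratios of 3.48 and 2.53, but trypsinogen genes are near-identical copies and their counts are uncertain.

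The lipase genes Pnlip, Pnliprp2 and Pnliprp1 were higher in WTg as well, with log2 ratios of 3.25, 3.35 and 2.19, as was Rnase1, a pancreatic ribonuclease, at 2.82. The remaining enzyme genes past 2-fold were 2210010C04Rik (2.51), Cpa3 (1.13), Amy2a5 (1.08) and Try10 (1.07). Pla2g1b, the secreted phospholipase, had 413.2 CPM in EL1 against 167.8 CPM in WTg (-1.30), and the kallikrein Klk1 at 1300 and 604 CPM (-1.11). As among the 8 proteases, the differences past 2-fold upward were seen in enzymes at or below 3579 CPM in EL1, while the enzymes above that level, such as Cpb1 and Cela1, stayed within 2-fold.

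**Figure D5:**
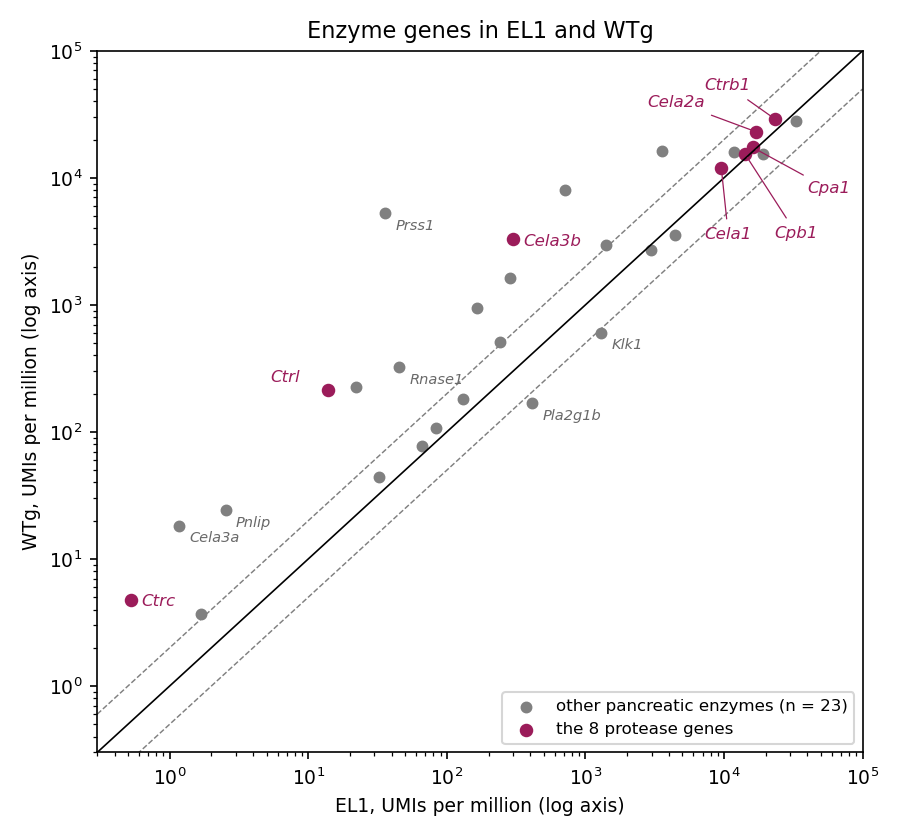
Level in WTg (y axis) against EL1 (x axis), both in CPM on log axes, for the 8 protease genes (purple) and the 23 companion enzymes with at least 10 UMIs (gray). The solid line marks equal levels and the dashed lines a 2-fold difference. Cela3b, Ctrl and Ctrc lie above the upper dashed line, and the 5 abundant genes lie between the lines.

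Inhibitors of serine proteases formed another fixed list. Of 12, 11 had at least 10 UMIs, 8 of which were at least 2-fold higher in WTg and 0 at least 2-fold lower, with a median log2 ratio of 2.63. Over all genes with at least 10 UMIs, 10.1% were higher and 6.9% lower by that fold. Serpini2, the pancreas-specific serpin, had 1.48 CPM in EL1 against 197.6 CPM in WTg (7.07). Spink1 was alike in both, at 3686 and 3782 CPM (0.04). The alpha-1-antitrypsin genes Serpina1a to Serpina1e, which inhibit elastases in blood and are near-identical copies of each other, had ratios of 1.52 to 3.26. Wfdc2 had 2 UMIs in EL1 and 155 in WTg (6.48), and Tfpi2 had 0 and 64, which is 24.5-fold higher in WTg with 3 counts in place of the 0. Slpi, an inhibitor of neutrophil elastase, had the lowest ratio, -0.39 (-0.81 to 0.01).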

How the data were processed

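Pancreatic tumours were digested with collagenase D and DNase I, red cells were lysed, and viable cells were checked with 7AAD, per the methods of the study. Libraries were made with the 10x Genomics 3′ kit (v3.1). The authors deposited UMI counts per gene and barcode, made with Cell Ranger (6.0.2 per the matrix header). The submitters' processing notes also name R 4.1, Seurat 4.0.5 and GRCm38. Whether strand and introns were counted was not given in the sources used here. The deposited dense count table equalled the matrix at every value of the 8 genes and was an alternative only.

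Counts were summed over kept barcodes per library or cluster and given as CPM, with exact Poisson intervals, exact conditional binomial intervals for ratios and Clopper-Pearson intervals for shares at 95% (scipy 1.17.1). A sum of 3 counts, put in place of 0, equals 0.0790 CPM in EL1 and 0.0909 CPM in WTg. With 1 library per group, no test was run. PCR and capture add error that these intervals do not cover. Clustering used scanpy 1.11.5 and leidenalg 0.10.2 (2000 variable genes, 30 components, 15 neighbours, resolution 1, no correction between libraries), without the 8 genes, the companion enzymes, Mettl3, Plk1 and the Seurat 5.3.0 cell cycle genes. A cluster was named when 3 or more markers of a class exceeded the other cells by 1 or more on the log2 scale (10 CPM added) and were found in 10% or more of its cells, with at least 1 among its top 10 genes. Scrublet called 4 doublets per library, which were kept. Of 32285 gene IDs, 32235 matched GENCODE M21, from which coordinates were taken. edgeR 4.0.16 (R 4.3.3) gave the TMM factors of an alternative.

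The 8 genes, the companion lists and the comparisons were chosen with earlier results of these data known. Genes named were the 8, genes of the fixed lists that were past 2-fold or had the highest or lowest ratio of their list, Mettl3, and the 5 genes with at least 200 UMIs most like the summed 8 and most like Cela1. One gene that this rule names is not reported here. Genes that lead a cluster or a list role, such as S100g or Spink1, were named in addition. The ratio calculation was tested on simulated counts for WTg over EL1 in all kept cells (12296 genes, 200 changed by 2 on the log2 scale). Of the changed genes, 197 came back within 0.5, and 95.3% of intervals held the true value. The simulated counts had counting error only, so this checks the calculation and not the filter, the clusters or their names.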

Additional observations from a re-analysis of the deposited data

Results flagged for a closer look

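The barcodes removed by the filter (508 of EL1 and 583 of WTg, median mitochondrial shares of 40.0% and 42.8%) were left out of the levels of the report, and several of the proteases differed between the libraries there too. The log2 ratio of WTg over EL1 in these barcodes was 3.06 for Cela3b (115 and 1478 UMIs) and 5.24 for Ctrl (2 and 116 UMIs), with counting intervals above 0. It was 0.21 for Cela1, 0.40 for Cela2a, 0.43 for Ctrb1 and 0.20 for Cpa1, also with intervals above 0. Cpb1 went the other way, with a ratio of -0.39 (-0.43 to -0.34). Haemoglobin genes summed to 67238 CPM in the removed barcodes of EL1 and 54727 CPM in those of WTg.

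Cela2a, Ctrb1, Cpa1 and Cpb1 had opposite directions in neuroendocrine-like and macrophage-like cells, and the difference between the cell groups was not tested, since each group has 1 library. The neuroendocrine-like cells were mostly cluster 1 in EL1 and cluster 5 in WTg, so their ratios do not compare the libraries inside a shared cluster. Cela2a had a log2 ratio of 0.43 in neuroendocrine-like and -1.47 in macrophage-like cells. For Ctrb1 the ratios were 0.45 and -1.51, for Cpa1 0.59 and -1.97, and for Cpb1 0.33 and -1.69. The macrophage-like cells had 105 to 316 UMIs of each of these genes per library, at median depths of 6882 UMIs in EL1 and 18381 UMIs in WTg.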

How the results depend on the processing

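The alternatives gave 204 values, of which 66 lay inside the counting interval or range of the reported value, 130 outside it in the same direction and 8 changed sign. All 8 changes of sign came with leaving out clusters 0, 2 and 10, the highest of WTg, where the log2 ratio was -0.18 for Cela1, -0.48 for Cela2a, -0.46 for Ctrb1, -0.21 for Cpa1, -0.58 for Cpb1, -0.28 for the elastases, -0.46 for the chymotrypsins and -0.37 for the carboxypeptidases. Cela3b, Ctrl and Ctrc were the 3 genes at least 2-fold higher, and 0 were lower, under each of the 11 alternatives. For the elastases (0.52 as reported) the ratio was 0.49 over all barcodes, 0.50 with stricter filters, 0.53 with the dense table's barcodes, 0.51 without doublets, 0.63 with TMM, 0.59 with totals without the enzymes, 0.50 with equal weight per cell, 0.50 without the 10 highest cells by either measure and 0.52 without cluster 3. For the chymotrypsins (0.30) the same settings gave 0.29 over all barcodes, 0.32 with the dense table's barcodes, 0.42 with TMM, 0.38 without the enzymes in the totals, 0.44 with equal weight and 0.33 or 0.35 without the highest cells. For the carboxypeptidases (0.11) they gave 0.08, 0.09, 0.12, 0.10, 0.22, 0.18, 0.13, 0.12, 0.12 and 0.12 in the order given for the elastases. The log2 ratio of the highest over the lowest cluster of EL1 was 5.94, and 6.14 with the enzymes kept in clustering. The background shares were 5.56% higher and 3.81% lower with at least 100 UMIs per gene, and 15.1% and 11% with at least 1. Of the 5 genes most like the summed 8 and of the 5 most like Cela1, 2 and 0 remained with at least 50 cells per point. No paired analysis was possible because both groups are single libraries. Leaving out cluster 3, clusters 0, 2 and 10, or the highest cells of each gene or class was chosen after seeing the data. The cause of these shifts was not tested. Depth limits Ctrc, with 20 UMIs in EL1.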

Other observations

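Proteins of the zymogen granule and of its secretion were a further list of 12 genes, all with at least 10 UMIs. Of these, 4 were at least 2-fold higher in WTg and 0 at least 2-fold lower, with a median log2 ratio of 0.28. Over all genes with at least 10 UMIs, the shares were 10.1% and 6.9%. Sycn, which encodes a granule membrane protein, had 10.7 CPM in EL1 against 784.9 CPM in WTg (6.20). The granule glycoprotein genes Gp2 and Cuzd1 were at 183.3 and 219.1 CPM in EL1 and at 1003 and 1002 CPM in WTg (2.45 and 2.19), and Dmbt1 had a ratio of 1.98. Rab27b, a GTPase of granule secretion, had the lowest ratio, -0.39.

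Of 13 acinar transcription factors, 12 had at least 10 UMIs, 2 were at least 2-fold higher in WTg and 1 at least 2-fold lower, with a median log2 ratio of 0.03. The shares over all genes with at least 10 UMIs were 10.1% and 6.9%, so these counts are near those of all genes. Gata6 had 2.06 CPM in EL1 against 13.1 CPM in WTg (2.67). Bhlha15, known for granule maturation, was at 43.9 and 91.7 CPM (1.06). Nr0b2 was lower in WTg, at 18.7 and 7.91 CPM (-1.24). Ptf1a and Rbpjl, the cell-specific subunits of the PTF1 complex, were detected in both libraries, at 52.8 and 31.4 CPM and at 129.2 and 134.6 CPM, and were chosen for naming after their values were seen.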
